A study of Neurospora crassa with 12 samples.

Results

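The genes described here are the velvet genes ve-1 (NCU01731), vea-2 (NCU02775) and vos-1 (NCU05964) and the methyltransferase-like gene lae-1 (NCU00646) of the filamentous fungus Neurospora crassa. They were taken by gene ID as regulators of development and secondary metabolism, and make up 4 of the 10592 genes in the count table. All 4 were expressed highly enough to be tested, among 8330 such genes. RefSeq gives a symbol for ve-1 (1 of the 4), and the names of the others are those used with these IDs in the choice of the genes.

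RNA sequencing was used to measure transcript levels in conidia germinating on Bird medium at 37 °C, in 4 stages with 3 libraries each. All libraries came from the mat A wild type FGSC2489 under constant light, so no stage was sampled in the dark and no mutant was included. Stage 1 was fresh conidia (15 min after inoculation), stage 2 first polar growth (60 min in the sample titles, 120 min in the time point tags), stage 3 germ tube extension (120 or 240 min) and stage 4 the first branching of hyphae (240 or 360 min). The titles and tags disagree on these times, and a source label mentions potato dextrose agar where the growth protocol states Bird medium. The methods of the study give the times of the titles, as rough values, for Bird medium at 37 °C. They give those of the tags for a separate culture on potato dextrose agar. The groups and their order are the same under both sets of labels, and stages are therefore named by number. Each library pooled the tissue of several plates in a collection, and a stage was sampled when most, not all, conidia had reached it. The methods of the study call the 3 libraries of a stage biological replicates, without saying whether they came from separate experiments, and the tests measure the spread between these libraries.

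Velvet proteins are fungal transcriptional regulators that share a DNA-binding fold. In Aspergillus nidulans, VeA carries VelB into the nucleus, chiefly in the dark, where the pair joins LaeA, a methyltransferase-like protein, in a complex that couples sexual development with secondary metabolism. VosA, another velvet protein of that species, acts in the maturation and viability of spores. In N. crassa, ve-1 is the counterpart of veA and lae-1 that of laeA. Strains without ve-1 have altered aerial growth, conidiation and carotenoid synthesis. VeA and its partners are also controlled by partner choice and location, which transcript levels do not show.

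Total counts lay between 42996748 and 71990884 per library, and a floor of 3 counts came to 0.0417 to 0.0698 CPM. CPM is the count of a gene per 1000000 counts, and apart from that floor, or where stated, CPM values are scaled by TMM factors, which adjust for differences in RNA composition. Ribosomal RNA took between 1.68% and 37.9% of the counts. The highest share stood apart and belonged to stage 3 replicate 2, whose TMM factor was 0.73. Conidial markers were high in the libraries labelled stage 1. The conidial genes con-6 and con-10 ranged over 18.5 to 22.7 and 1.78 to 2.59 CPM in stage 2, against 867 to 1305 and 102 to 152 CPM in stage 1. The hydrophobin gene of the conidial coat, eas, averaged 58.5 CPM in stage 2, against 11117 CPM in stage 1. The libraries of stage 4 and stage 2 were hard to tell apart. The SD of the log2 difference, over 5771 genes that averaged 10 CPM or more, between a stage 4 and a stage 2 library was 0.17 to 0.24, against 0.22 to 0.23 between stage 4 libraries and 0.21 to 0.24 between stage 2 libraries. The quasi-likelihood test of edgeR called 0 of 8330 genes between these stages, while DESeq2 called 1, and the unadjusted edgeR p was below 0.05 for 136 (1.63%). Each value for stage 4 against stage 3 is therefore close to the reverse of that for stage 3 against stage 2, with the stage 3 libraries in both, and the 2 comparisons are not independent of each other. The conidial markers checked the label of stage 1, and no marker was set to check that of stage 4 against stage 2.

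**Figure D1:**
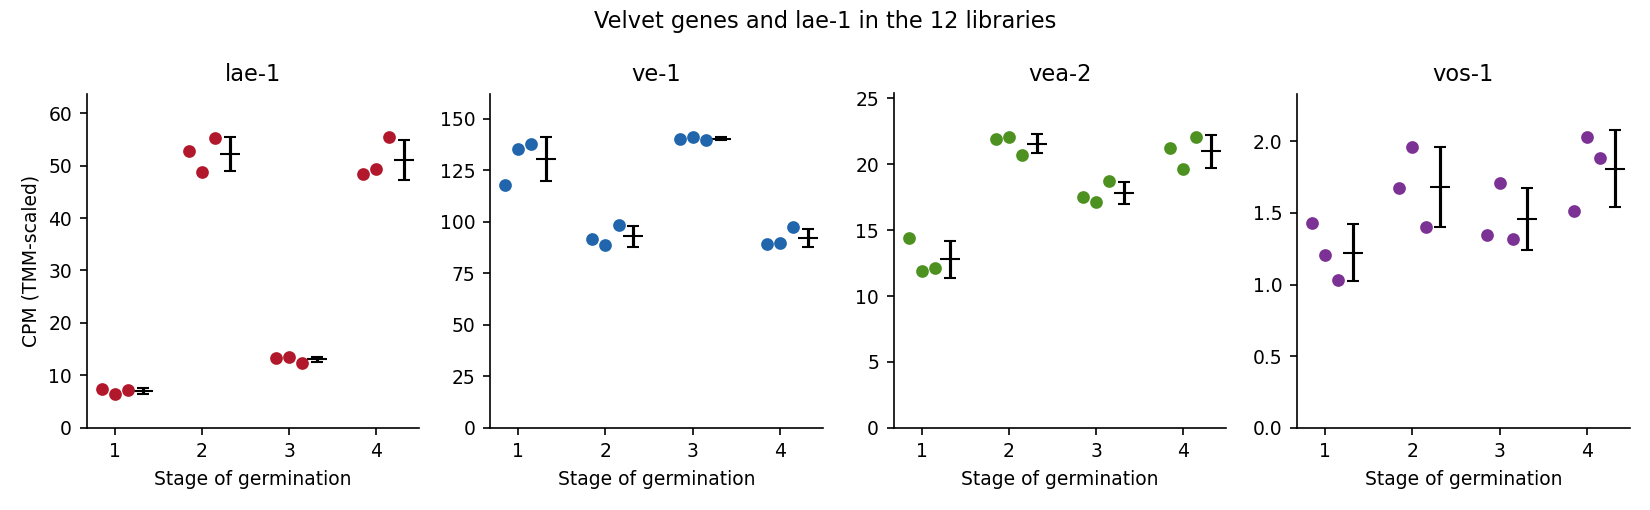
CPM scaled by TMM (vertical axis, from 0, with its own range in each panel) of lae-1, ve-1, vea-2 and vos-1 in stages 1 to 4. Each coloured point is a library, and the bar beside it is the mean with the SD of 3 libraries. lae-1 lay at 48.3 to 55.4 CPM in stages 2 and 4 and at 6.38 to 13.4 CPM in stages 1 and 3, ve-1 was lower in stages 2 and 4, and the libraries of vos-1 overlapped in most stages.

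lae-1 had the widest fold range of the 4 genes, with a high level in stages 2 and 4 and a low level in stages 1 and 3. In stage 1 it was at 7.47, 6.38 and 7.15 CPM, and in stage 2 at 52.7, 48.7 and 55.2 CPM. The 3 stage 3 libraries held 13.3, 13.4 and 12.4 CPM, and those of stage 4 held 48.3, 49.4 and 55.4 CPM. No library of stages 2 and 4 came near one of stages 1 and 3, and every stage 3 library lay above every stage 1 library. The counts behind these values were 429 to 3778 per library.

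The level of lae-1 averaged 52.2 ± 3.27 CPM in stage 2, against 7.0 ± 0.557 CPM in stage 1 (SD, n = 3 each). This was 7.45-fold, or 2.90 ± 0.08 on the log2 scale (estimate and SE), with an edgeR adjusted p of 1.08e-12. Of the 8330 genes tested, 224 had a larger rise. In stage 3 it averaged 13.0 ± 0.558 CPM and fell by 2.00 (SE 0.08) on the log2 scale against stage 2 (edgeR adjusted p 3.45e-09), and 101 genes had a larger fall. Stage 4 averaged 51.0 ± 3.83 CPM, 3.92-fold the level of stage 3 (log2 change 1.97, SE 0.08, edgeR adjusted p 5.7e-09), and 104 genes had a larger rise. Without stage 3 replicate 2 the changes into and out of stage 3 were -2.03 and 1.99. The summed level of the 4 conidial markers (eas, con-6, con-8 and con-10) moved with lae-1 at these later steps, which are not independent of each other. It ranged over 9.0 to 10.5 CPM in stage 3, against 87.0 to 92.7 CPM in stage 2, and over 71.3 to 104 CPM in stage 4. At the step into stage 2 the markers ran the other way, since their sum in stage 1 was 11725 to 14107 CPM, and all 4 passed the test at each of the 3 steps. Of the other conidiation genes, described below, acon-3 rose in stage 3 against stage 2 (log2 change 0.90, edgeR adjusted p 0.000326). fl, acon-2 and rca-1 did not pass at that step. The part of the markers in the lae-1 result was not tested. Fewer cells in a given state and less RNA per cell cannot be told apart in such bulk libraries.

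Set against fresh conidia, lae-1 was also higher in stage 3 (1.86-fold, log2 change 0.90, 95% interval 0.72 to 1.07, edgeR adjusted p 1.63e-07) and in stage 4 (7.28-fold, log2 change 2.86, edgeR adjusted p 1.2e-12). The order of its levels was therefore stage 1, stage 3, then stages 4 and 2. The last pair did not differ beyond the spread (log2 change of stage 4 against stage 2 -0.03, 95% interval -0.19 to 0.13).

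ve-1, the founding velvet gene of N. crassa, took the opposite course with a smaller fold range. Its 3 libraries stood at 118, 136 and 138 CPM in stage 1 and at 91.4, 88.9 and 98.6 CPM in stage 2. They stood at 140, 141 and 139 CPM in stage 3 and at 89.2, 89.8 and 97.4 CPM in stage 4. Every library of stages 2 and 4 was thus below every library of stages 1 and 3. The stage 3 libraries all lay above those of stage 1, by a small margin.

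In stage 2 ve-1 averaged 93.0 ± 5.0 CPM, against 130 ± 10.9 CPM in stage 1 (SD, n = 3 each), and fell by 0.49 on the log2 scale (SE 0.07, edgeR adjusted p 1.68e-05). It rose to 140 ± 0.817 CPM in stage 3, 1.51-fold the stage 2 level (log2 change 0.59, edgeR adjusted p 1.75e-05). In stage 4 it fell to 92.1 ± 4.59 CPM, a log2 change of -0.61 against stage 3 (edgeR adjusted p 1.49e-05). The changes into and out of stage 3 were 0.59 and -0.60 without stage 3 replicate 2. The small spread of stage 3 depended on the scaling, since division by library totals alone gave 146, 103 and 151 CPM there, the low value being the library with the high ribosomal share.

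Stage 3 and stage 1 are neighbours in the order of ve-1 levels, and the test did not separate them (log2 change 0.10, 95% interval -0.04 to 0.25, edgeR adjusted p 0.173) although their libraries did not overlap. Stage 4 against stage 1 gave a fall of 0.50 on the log2 scale (edgeR adjusted p 1.31e-05), and stage 4 against stage 2 gave -0.01 (95% interval -0.16 to 0.13).

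vea-2, another velvet gene, shared the direction of lae-1 at each step with changes of at most 1.69-fold. Its stage 1 libraries held 14.4, 11.9 and 12.1 CPM and its stage 2 libraries 21.9, 22.1 and 20.7 CPM. In stage 3 it was at 17.5, 17.1 and 18.7 CPM, and in stage 4 at 21.2, 19.6 and 22 CPM. Stage 3 lay between stage 1 and the other stages with no library in common.

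The mean of vea-2 was 21.6 ± 0.730 CPM in stage 2, against 12.8 ± 1.39 CPM in stage 1 (SD, n = 3 each), a rise of 0.75 on the log2 scale (SE 0.08, edgeR adjusted p 1.76e-06). Stage 3 averaged 17.8 ± 0.831 CPM, a log2 change of -0.28 against stage 2 (SE 0.08, edgeR adjusted p 0.0181), and stage 4 averaged 21.0 ± 1.23 CPM, a log2 change of 0.24 against stage 3 (SE 0.08, edgeR adjusted p 0.0372). The sizes of these last changes varied little when single libraries were left out, but their calls did not hold throughout. The call into stage 3 was lost without stage 2 replicate 2 (-0.26, edgeR adjusted p 0.0602), stage 3 replicate 1 (-0.27, 0.0545) or stage 3 replicate 2 (-0.25, 0.0508). The call out of stage 3 was lost without stage 2 replicate 2 (0.24, edgeR adjusted p 0.0509), stage 3 replicate 1 (0.23, 0.0950), stage 3 replicate 2 (0.21, 0.0926), stage 4 replicate 1 (0.23, 0.0935) or stage 4 replicate 3 (0.20, 0.130). Against stage 1, the rises to stage 3 (log2 change 0.48, edgeR adjusted p 0.000145) and stage 4 (0.71, edgeR adjusted p 3.1e-06) kept their calls without any 1 library.

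vos-1, the velvet gene named after the spore viability factor of Aspergillus, was the lowest of the 4 genes and the least precisely measured. It was at 1.43, 1.21 and 1.03 CPM in stage 1 and at 1.67, 1.96 and 1.40 CPM in stage 2. Stage 3 libraries held 1.35, 1.71 and 1.32 CPM and stage 4 libraries 1.51, 2.03 and 1.88 CPM. Neighbouring stages overlapped throughout, and only stage 4 and stage 1 had no library in common.

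These levels rested on 71 to 126 counts per library, for which counting alone gives a coefficient of variation of 8.91% to 11.9%. This is optimistic, because 1 fragment can add more than 1 count. The libraries of a stage varied by 14.8% to 16.6%, and how much of this was counting error was not tested. The joint test over the 4 stages did not call vos-1 (edgeR adjusted p 0.0848). In stage 4 it averaged 1.81 ± 0.267 CPM, against 1.22 ± 0.199 CPM in stage 1 (SD, n = 3 each), which passed the test (log2 change 0.56, SE 0.20, edgeR adjusted p 0.0225). This call was lost without stage 1 replicate 2 (0.54, edgeR adjusted p 0.0518) or replicate 3 (0.45, 0.0833) and without stage 4 replicate 2 (0.47, 0.0772) or replicate 3 (0.54, 0.0522). Stage 2 against stage 1 gave 0.45 (95% interval 0.02 to 0.89, edgeR adjusted p 0.0542), and this passed without stage 1 replicate 1 (0.58, 0.0299), stage 2 replicate 3 (0.57, 0.0320) or stage 3 replicate 2 (0.47, 0.0438). The intervals for stage 3 against stage 2 (-0.64 to 0.23) and stage 4 against stage 3 (-0.13 to 0.74) leave room for changes of about the size seen for ve-1 at the same steps in the direction opposite to ve-1, and not in its direction.

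The locus adds a limit. In assembly NC12 the gene span of vos-1 (chromosome VI, 3287408 to 3290173) overlaps that of NCU05965 (3285675 to 3287604) by 197 bases. The authors set the strand of the libraries in the alignment, but the table used here gives no strand for the 2 genes. If they lie on the same strand, reads from the shared bases may have been counted for either gene. NCU05965 averaged 3.88, 5.07, 4.61 and 4.72 CPM in stages 1 to 4. The spans of ve-1 (chromosome II, 2607929 to 2611456), vea-2 (chromosome I, 9233545 to 9236639) and lae-1 (chromosome I, 7714560 to 7717622) overlap no other gene of the table.

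**Figure D2:**
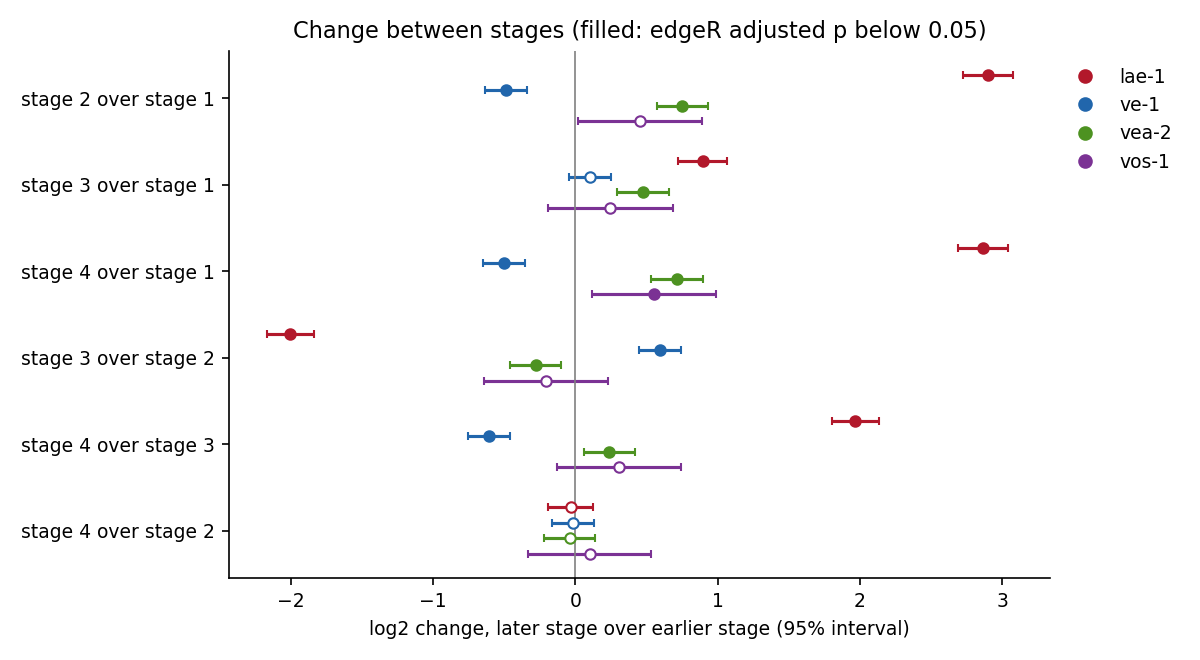
The log2 change (horizontal axis) of each gene for the 6 pairs of stages, later over earlier, with bars for the 95% interval. Filled points passed the edgeR test (adjusted p below 0.05). From stage 2 to stage 3, lae-1 (-2.0) and vea-2 (-0.28) lay left of 0 and ve-1 (0.59) to its right, and for stage 4 over stage 2 all 4 intervals span 0.

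Counts of calls have to be read against a transcriptome in which most genes changed. The joint test called lae-1, ve-1 and vea-2, 3 of the 4 genes, where 84.3% of all genes tested were called. For stage 2 against stage 1 the same 3 genes passed, beside 77.3% of all genes, with 2 higher (39.4% of all genes) and 1 lower (37.9%). Their libraries did not overlap, as was so for 80.2% of all genes. These shares are near the background and say nothing particular about the 4 genes.

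For stage 3 against stage 2, 3 of the 4 passed, beside 39.0% of all genes, with 1 higher (20.8% of all genes) and 2 lower (18.2%). For stage 4 against stage 3 it was again 3 of the 4, beside 39.0% of all genes, with 2 higher (18.2%) and 1 lower (20.8%). The libraries did not overlap for 3 of the 4 genes at these steps, beside 54.9% and 52.1% of all genes. For stage 3 against stage 1, 2 of the 4 passed (78.6% of all genes), both of them higher (40.8%) and none lower (37.8%), and 3 did not overlap (78.5%). For stage 4 against stage 1 all 4 passed (77.7%), 3 higher (39.5%) and 1 lower (38.2%), and all 4 did not overlap (79.0%). One of these calls, that of vos-1, was lost without 4 of the 12 libraries in turn, and the joint test did not call vos-1. For stage 4 against stage 2 none passed (0% of all genes), and all 4 overlapped, where 6.84% of all genes did not.

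The course of lae-1 and vea-2, a rise, a fall and a rise with every step past the test, was found in 683 genes (8.20%). For vea-2 this course is not settled, since its calls for stage 3 against stage 2 and stage 4 against stage 3 were lost with library totals in place of TMM (edgeR adjusted p 0.104 and 0.0982) and without 3 and 5 of the 12 libraries in turn. The mirror course of ve-1 was found in 745 genes (8.94%). In both courses the last step is close to the reverse of the step before, since stages 4 and 2 were hard to tell apart. It is no separate evidence of a change at branching. By the size of the fitted change for stage 2 against stage 1, lae-1 ranked 225 among all genes from the largest increase down, vea-2 ranked 2008 and vos-1, which did not pass, 2746. For stage 3 against stage 2, lae-1 ranked 102 from the largest decrease, and ve-1 ranked 851 from the largest increase.

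Levels of different genes were compared per kilobase of gene span, because the span from the RefSeq table includes introns and was the only length at hand. On this scale ve-1 was the highest in every library. It averaged 37.0, 26.3, 39.8 and 26.1 CPM per kb in stages 1 to 4, between the 74.1 and 82.2 percentile of 8329 genes. vos-1 was the lowest, with means of 0.442, 0.607, 0.528 and 0.654 CPM per kb, between the 10.3 and 14.6 percentile. The genes between them changed places. In stage 1 vea-2 lay above lae-1 (3.84 to 4.65 against 2.08 to 2.44 CPM per kb), and so it did in stage 3 (5.53 to 6.05 against 4.05 to 4.39). In stage 2 it lay below (6.70 to 7.13 against 15.9 to 18 CPM per kb), as in stage 4 (6.34 to 7.12 against 15.8 to 18.1). lae-1 stood at the 25.1, 63.1, 31.2 and 62.4 percentile in stages 1 to 4, while vea-2 stayed between the 33.6 and 39.5 percentile.

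Ratios between 2 genes within a library do not depend on how libraries are scaled, and they were tested over the stages with an exact permutation test of the 15400 divisions of the 12 libraries, adjusted over the 6 ratios. The ratio of lae-1 to ve-1, per kb, was 0.0729, 0.0543 and 0.0597 in stage 1 and 0.664, 0.631 and 0.645 in stage 2. It was 0.109, 0.110 and 0.102 in stage 3 and 0.624, 0.633 and 0.655 in stage 4. The transcript levels of lae-1 and ve-1, per kb of gene span, thus came within the same order of magnitude in stages 2 and 4. They lay further apart in stages 1 and 3. Protein levels were not measured. The ratio differed among stages (exact permutation p 0.00039, adjusted p 0.00117).

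The ratio of lae-1 to vea-2 averaged 0.555, 2.45, 0.743 and 2.46 per kb in stages 1 to 4 (exact permutation, adjusted p 0.0013), so it passed 1 in stages 2 and 4. The ratio of vea-2 to ve-1, both velvet genes, averaged 0.113, 0.265, 0.145 and 0.260 (exact permutation, adjusted p 0.00175). That of vos-1 to ve-1 averaged 0.0121, 0.0232, 0.0133 and 0.0250 (exact permutation, adjusted p 0.00616), and that of lae-1 to vos-1 averaged 5.25, 28.8, 8.16 and 25.8 (exact permutation, adjusted p 0.00117). vos-1 to vea-2 was the exception. Its means were 0.107, 0.0869, 0.0923 and 0.0970, and the test did not separate the stages (exact permutation, adjusted p 0.437). Single libraries of this ratio ranged over 0.0758 to 0.116, which does not show that the 2 genes change alike. Each ratio uses counts that other ratios use too, so the 6 tests overlap. Ratios of other gene pairs were not tested, so these calls have no background share beside them. The joint test over the stages called 84.3% of all genes.

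**Figure D3:**
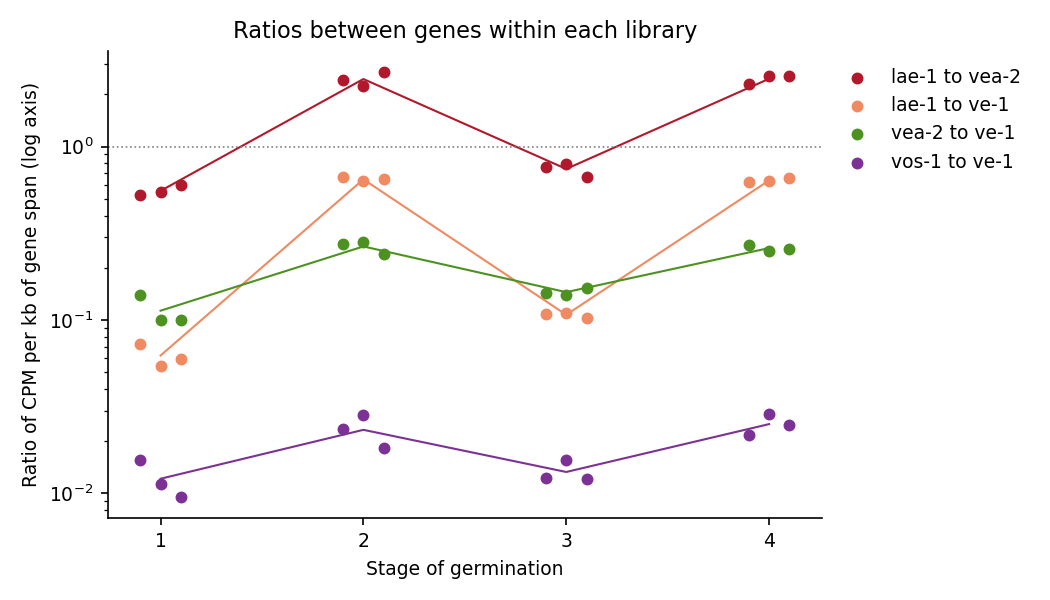
Ratio of CPM per kb of gene span within each library (vertical log axis) in stages 1 to 4. Points are libraries and lines join the stage means, with a dotted line at a ratio of 1. lae-1 to vea-2 is below 1 in stages 1 and 3 (means 0.555 and 0.743) and above 1 in stages 2 and 4 (2.45 and 2.46).

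Genes of light sensing, conidiation and carotenoid synthesis were set beside the velvet genes because ve-1 has been tied to these processes, and were described by their counts of calls. The lists were chosen with earlier results of these data known. Of 8 genes of light sensing and the clock, 0 rose (39.4% of all genes) and 6 fell (37.9%) in stage 2 against stage 1. Their median log2 change was -1.51, beside 0.01 for all genes, of which 77.3% passed. The largest fall was that of nop-1, an opsin gene, which averaged 0.519 ± 0.176 CPM in stage 2, against 10.5 ± 1.3 CPM in stage 1 (log2 change -4.33, edgeR adjusted p 2.88e-08). In stage 3 against stage 2, 2 of the 8 rose (20.8% of all genes) and 0 fell (18.2%), and in stage 4 against stage 3, 0 rose (18.2%) and 2 fell (20.8%).

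Of 8 conidiation genes, 1 rose and 7 fell in stage 2 against stage 1 (median log2 change -3.50), where 77.3% of all genes passed, 39.4% higher and 37.9% lower. The largest fall was that of eas (58.5 ± 0.0232 CPM in stage 2, against 11117 ± 1050.3 CPM in stage 1, log2 change -7.57, edgeR adjusted p 2.09e-13). The rise was that of acon-3, a gene needed early in conidiophore development (2.26 ± 0.255 CPM in stage 2, against 1.23 ± 0.0986 CPM in stage 1, log2 change 0.88, edgeR adjusted p 0.000143). For stage 3 against stage 2, 1 rose (20.8% of all genes) and 4 fell (18.2%), and for stage 4 against stage 3, 5 rose (18.2%) and 1 fell (20.8%). The medians were -1.10 and 1.09, beside 0.00 for all genes in both.

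All 5 carotenoid genes passed in stage 2 against stage 1 (77.3% of all genes), with 2 higher (39.4%) and 3 lower (37.9%). al-3, for geranylgeranyl diphosphate synthase, rose most (53.2 ± 0.936 CPM in stage 2, against 22.6 ± 0.654 CPM in stage 1, log2 change 1.24, edgeR adjusted p 3.43e-10). al-2, for phytoene synthase, fell most (12.1 ± 0.281 CPM in stage 2, against 79.0 ± 7.0 CPM in stage 1, log2 change -2.71, edgeR adjusted p 6.43e-13). In stage 3 against stage 2, 4 of the 5 rose (20.8% of all genes) and 0 fell (18.2%). In stage 4 against stage 3, 0 rose (18.2%) and 4 fell (20.8%), and 39.0% of all genes passed at each of these steps. mak-2, for a MAP kinase of cell fusion whose Aspergillus counterpart modifies VeA, averaged 215 ± 5.01 CPM in stage 2, against 51.4 ± 15.6 CPM in stage 1 (log2 change 2.07, edgeR adjusted p 1.04e-06).

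Among these 22 genes, 3 followed the full course of ve-1 (8.94% of all genes), lower, higher and lower with each step past the test. The course of lae-1 and vea-2 was followed by 0 of them (8.20% of all genes). The 3 were picked out after their values were seen. They are al-1, for phytoene desaturase (185, 141, 209 and 142 CPM as means of stages 1 to 4), al-2 (79.0, 12.1, 20.9 and 12.3 CPM) and vvd, for a blue-light receptor (1269, 368, 508 and 369 CPM). In stage 3, al-1 and ve-1 came close to their stage 1 levels or above them, whereas al-2 and vvd stayed below. For stage 4 against stage 2 the test called 0 genes of every list, as it did over all genes.

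**Figure D4:**
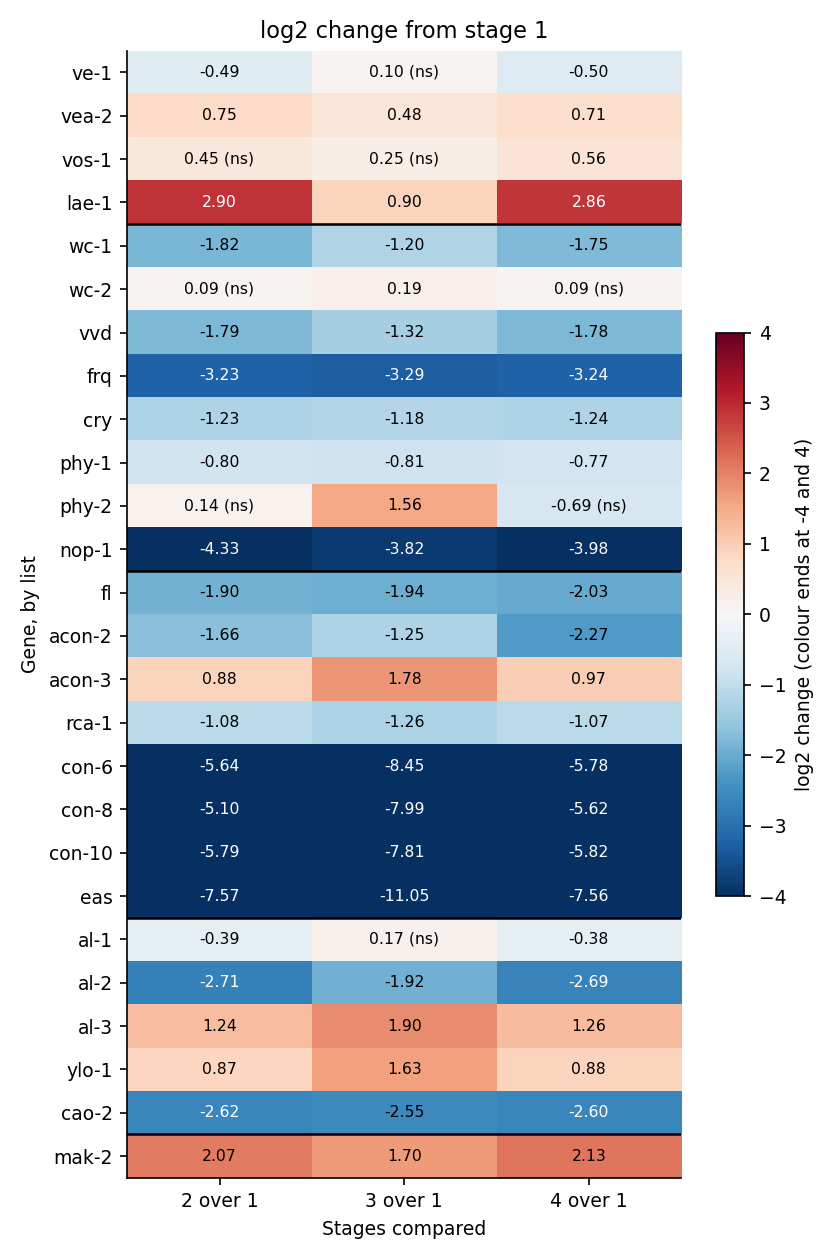
The log2 change of stages 2, 3 and 4 over stage 1 (columns) for the 4 genes and the 22 list genes (rows, with lines between lists). Red is higher and blue lower than in stage 1, the colour ends at -4 and 4, and ns marks changes that did not pass the edgeR test. lae-1 has the deepest red (2.90 and 2.86 in stages 2 and 4), and ve-1 is pale blue in the same columns (-0.49 and -0.50).

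The genes whose course was most like that of each of the 4 were sought among 977 or 978 genes with a RefSeq symbol and at least 10 CPM in some stage, by Pearson's r of log2 CPM over the 12 libraries. These r values are a description, since the libraries form groups by stage and share their scaling. For lae-1 the closest were cse-1 (r 0.992), mdk-1 (0.989) and spa2 (0.982), the last for a protein of the polarity complex at hyphal tips, and 17 genes were over 0.95. spa2 averaged 50.9, 98.7, 68.6 and 97.7 CPM in stages 1 to 4, a smaller relative range than that of lae-1. For ve-1 they were cpc-3 (0.983), for the kinase that senses amino acid starvation, pks-3 (0.975), for a polyketide synthase, and ppm-3 (0.961), and 5 genes were over 0.95. pks-3, a gene of secondary metabolism, averaged 34.2, 16.4, 43.3 and 15.3 CPM.

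For vea-2 the closest were pcn (r 0.977), mob-1 (0.973), for a partner of kinases of polar growth and septation, and rib-3 (0.973), with 23 genes over 0.95. mob-1 averaged 4.66, 22.1, 12.9 and 22.9 CPM. For vos-1 the highest values were those of un-16 (0.871), ro-4 (0.832), for an actin-related protein of dynactin, and mus-44 (0.830), and 0 genes were over 0.95, beside the wide counting error of vos-1 itself. None of the lists of 3 shared a gene with another.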

How the data were processed

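Strand-specific libraries were made from poly(A) RNA selected with oligo(dT). As the labels and the study's methods state, the authors aligned reads to the N. crassa genome with HISAT2 2.1.0 after base calling with CASAVA 1.8.2, and counted with StringTie 1.3.3b. The deposited table holds expected counts, whole numbers derived from coverage, so that 1 fragment can add more than 1 count (the value 3 occurred 1482 times, the value 1 occurred 953 times). Counting errors and floors are therefore optimistic. An additional deposited table of the authors' relative expression per stage was not used. Names and spans came from RefSeq for assembly NC12, in which 10590 of 10592 IDs were found.

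Low genes were removed by filterByExpr (count 10, total 15). TMM scaling and the quasi-likelihood fit used edgeR 4.0.16 (R 4.3.3, limma 3.58.1), with 1 coefficient per stage over 12 libraries. Each of the 6 pairs of stages and a joint test were adjusted by Benjamini-Hochberg over 8330 genes at 0.05. The biological coefficient of variation was 10.8%. Alternatives were DESeq2 1.42.0, other scalings and filters, pair-only fits and the replicate block. Scripts used Python 3.11.15, pandas 2.3.3, numpy 2.4.6, scipy 1.17.1 and matplotlib 3.10.9, and the tests were tried on simulated data. Promoter motifs were not searched. The named list genes are those with the largest rise and fall per list into stage 2, with conidial checks and the 3 closest genes per member. The members and lists were chosen with earlier results of these data known.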

Additional observations from a re-analysis of the deposited data

How the results depend on the processing

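Under the alternatives that kept all libraries, 194 of 198 test results for the 4 genes and their ratios kept their direction and side of the threshold, and 124 of 144 list counts were equal to those reported, the others differing by 1 gene. Division by library totals, which moved the median of all genes by -0.10 (log2) into stage 3 and by 0.13 out of it, gave the 4 other test results. vea-2 no longer passed there for stage 3 against stage 2 (-0.37, edgeR adjusted p 0.104) or stage 4 against stage 3 (0.37, 0.0982). The light and clock list had 1 call at each of these steps in place of 2, and 3 with the replicate block. For stage 4 against stage 2, where none of the 4 genes passed, ve-1 (0.027) and lae-1 (0.0078) changed sign. Relative to those shifts every direction of ve-1, vea-2 and lae-1 at the 3 steps was as with TMM.

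Leaving out 1 library at a time gave a range of -0.31 to -0.25 for vea-2 in stage 3 against stage 2 and of 0.20 to 0.28 in stage 4 against stage 3. For vos-1 it gave 0.32 to 0.58 in stage 2 against stage 1 and 0.45 to 0.68 in stage 4 against stage 1. For stage 4 against stage 2 the ranges spanned 0, with -0.053 to 0.031 for ve-1, -0.075 to 0.0051 for vea-2, -0.017 to 0.23 for vos-1 and -0.094 to 0.0094 for lae-1. In all, 386 of 408 such test results kept direction and call, and 227 of 252 list counts were equal to those reported, the others differing by 1 gene. The cause of the changes was not tested beyond the loss of a library.

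Replicate numbers gave no clear sign of pairing, since 4 of 18 same-numbered pairs had deviations correlated over 0.1 (range -0.36 to 0.26). Pairs with different numbers reached from -0.33 to 0.37, and such correlations cannot exclude a pairing. With the replicate block no call of the 4 genes changed (lae-1, stage 2 against stage 1, 2.90, edgeR adjusted p 4.56e-11). With stages permuted within replicate numbers, the lae-1 to ve-1 ratio still differed among stages (exact permutation, adjusted p 0.0104). Levels per kb by transcript or coding length were not run, since the table used gives spans. For vos-1, 71 to 126 counts per library limit what can be seen.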
